A study of Mus musculus with 8 samples.

Results

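The CC chemokine ligands Ccl1, Ccl2, Ccl3, Ccl4, Ccl5, Ccl6, Ccl7, Ccl8, Ccl9 and Ccl12 were followed across CD4+ T cell isolates from mice with and without a tumor. They were found by name among the microarray probes: 12 of 56587 probes carried 1 of these 10 gene names, of 37063 gene names on the array. Ccl1 and Ccl4 had 2 probes each and the other 8 genes 1 each. All samples came from C57BL/6 mice that received OVA-specific T cell receptor transgenic CD4+ T cells and were immunized with dendritic cells loaded with OVA peptide. CD4+ T cells were isolated 4 days after immunization, and 0.1 µg of their RNA was labelled with Cy3 and put on 1 array per sample.

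The 4 groups held 2 arrays each. Arrays 7 and 8 were from MCA-OVA-bearing mice given anti-IL-6R Ab, an antibody against the receptor of interleukin 6. Arrays 3 and 4 were from MCA-OVA-bearing mice given control Ab, arrays 5 and 6 from tumor-free mice given anti-IL-6R Ab, and arrays 1 and 2 from tumor-free mice given control Ab. The tumor was MCA205, a mouse fibrosarcoma line, made to express ovalbumin (OVA). The labels count 2 independent experiments per condition, but the sources used here do not say which arrays share an experiment, how many mice a sample pools or how pure the isolates were. The p-values therefore measure only the spread between these arrays. The labels do not say whether CD4+ T cells of the host and the transferred ones were separated. All 12 T cell marker genes of a fixed list were well above background on all 8 arrays. Their summed signal, given below, was highest in tumor-bearing controls. All arrays were on 1 slide, with tumor status along its rows and antibody along its columns, so the position on the slide cannot be told apart from the groups.

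CC chemokines are small secreted proteins that guide leukocytes through G protein-coupled CC receptors. Ccl2, Ccl7 and mouse Ccl12 are ligands of Ccr2 and draw monocytes, and macrophages and stromal cells are well known sources of them. Mouse Ccl8 and Ccl1 are ligands of Ccr8, a receptor of T helper 2 and regulatory T cells. Ccl3, Ccl4 and Ccl5 are inflammatory attractants of T cells and monocytes, and activated T cells and natural killer (NK) cells make them as well as myeloid cells. Ccl6 and Ccl9 act through Ccr1 and are made mainly by myeloid cells.

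All 10 genes had their probes on chromosome 11 of the mm9 build that the file headers name, in a pair of clusters. The Ccl2 (81850650 to 81850709, plus strand), Ccl7 (81860656 to 81860715, plus), Ccl12 (81916710 to 81916769, plus), Ccl8 (81930108 to 81930167, plus) and Ccl1 probes (81990168 to 81990227 for probe 1 and 81990451 to 81990510 for probe 2, minus) lay within 139.861 kb. The second cluster began 1.348786 Mb further on and spanned 138.816 kb. It held the probes of Ccl5 (83339296 to 83339355, minus), Ccl9 (83388223 to 83388282, minus), Ccl6 (83401997 to 83402056, minus), Ccl3 (83461358 to 83461417, minus) and Ccl4 (83478052 to 83478111 for probe 1 and 83478038 to 83478097 for probe 2, plus). The Ccl4 probes overlapped by 46 bases and read nearly the same sequence. Between probes of different genes the longest shared run was 13 bases, for Ccl8 and Ccl12.

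RefSeq promoters (GRCm38.p6) were at hand for 6 of the 10 genes. The 250 bases before the start are shown 5′ to 3′ for the 4 of them with a probe called for tumor under control antibody, with motif matches in capitals.
Ccl12 promoter, chr11:82101595-82101844, plus strand: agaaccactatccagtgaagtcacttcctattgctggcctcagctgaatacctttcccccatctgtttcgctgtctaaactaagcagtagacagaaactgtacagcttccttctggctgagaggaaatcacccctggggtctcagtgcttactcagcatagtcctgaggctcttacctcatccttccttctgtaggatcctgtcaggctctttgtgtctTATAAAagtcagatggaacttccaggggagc
Ccl8 promoter, chr11:82114935-82115184, plus strand: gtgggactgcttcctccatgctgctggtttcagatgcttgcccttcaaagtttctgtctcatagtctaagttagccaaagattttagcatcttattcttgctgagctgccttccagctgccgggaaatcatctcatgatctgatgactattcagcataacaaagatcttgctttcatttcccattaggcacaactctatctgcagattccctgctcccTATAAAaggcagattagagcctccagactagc
Ccl1 promoter, chr11:82179813-82180062, minus strand: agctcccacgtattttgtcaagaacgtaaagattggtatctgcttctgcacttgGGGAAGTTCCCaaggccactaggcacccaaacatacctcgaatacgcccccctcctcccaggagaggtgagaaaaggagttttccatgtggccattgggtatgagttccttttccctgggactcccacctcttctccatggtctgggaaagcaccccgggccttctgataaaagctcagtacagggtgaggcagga
Ccl3 promoter, chr11:83649379-83649628, minus strand: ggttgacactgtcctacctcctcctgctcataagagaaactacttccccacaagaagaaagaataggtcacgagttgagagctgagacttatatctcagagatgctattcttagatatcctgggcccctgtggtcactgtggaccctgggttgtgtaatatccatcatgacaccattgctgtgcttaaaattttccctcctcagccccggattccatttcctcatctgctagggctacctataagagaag
Both strands were searched for TATAAA (the TATA box), GGGA and CC with 4 bases of any kind between them (NF-kappaB), TTCNNNGAA (STAT), TGANTCA (AP-1) and GAAA and GAAA with 2 bases between them (IRF). Ccl12 held a TATAAA from base -31 and Ccl8 from base -32 before the start, and 12.4% of 32851 promoters of this length held 1. The capitals in Ccl1 are a pair of overlapping NF-kappaB matches from bases -196 and -195, on opposite strands of a palindromic run, and 17.6% of promoters held that motif. None of these motifs was in the Ccl3 or Ccl6 window. The Ccl9 window held 3 TATAAA matches (bases -224, -94 and -92, of which the last 2 overlap) and 1 AP-1 match at base -53, a motif in 6.75% of promoters. The STAT and IRF motifs, in 7.02% and 2.98% of promoters, were in none of the 6 windows. A match is a description of letters and shows no binding.

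Levels below are log2 of the background-subtracted signal over the array's 75th percentile, so 0 is the brightness of that percentile and a difference of 1 is a factor of 2 in signal. Levels of different probes are not comparable with each other. Differences are given ± standard error from limma, fitted over the 32039 probes that the scanner software called well above background throughout 1 or more of the groups, and a change was called at a Benjamini-Hochberg adjusted p under 0.05. All 12 chemokine probes passed that filter, Ccl7 and Ccl12 through the tumor-bearing groups alone. The share of all probes with an unadjusted p under 0.05 was not counted, so counts at that cut-off have no background here.

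Ccl8, Ccl7 and Ccl12 were higher on all 4 arrays from tumor-bearing mice than on all 4 from tumor-free mice. The share of all probes whose arrays separate without overlap was not counted. Separation is therefore given as a description, here and for the genes that follow. Ccl8 was at 2.56 and 2.29 in tumor-bearing mice given anti-IL-6R and at 1.99 and 2.15 in tumor-bearing controls. It was at -0.88 and 0.06 in tumor-free mice given anti-IL-6R and at -1.45 and -1.02 in tumor-free controls. Under control antibody Ccl8 was 9.87-fold higher with tumor (3.30 ± 0.28, adjusted p = 0.00136), and under anti-IL-6R 7.14-fold higher (2.84 ± 0.28, adjusted p = 0.0128). The second of these calls was lost without array 7 (adjusted p = 0.0779) or 8 (adjusted p = 0.0553) and with no trend in the variance (adjusted p = 0.0695), whereas the first was kept under every alternative run. In bulk RNA a change in the number of cells of a type and a change in RNA per cell cannot be told apart, here and for the genes that follow.

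Ccl7 was at -2.82 and -2.40 in tumor-bearing mice given anti-IL-6R and at -2.85 and -2.90 in tumor-bearing controls. It was not well above background on any of the 4 tumor-free arrays, where its measured values were -5.85 and -6.03 with anti-IL-6R and -5.84 and -6.10 with control antibody. Its change is therefore a lower bound, taken against the lowest signal called well above background on each array of the dim group. Ccl7 was at least 2.12-fold higher with tumor under control antibody and at least 2.48-fold higher under anti-IL-6R, and these bounds were not tested. Limma called the fitted differences under control antibody (adjusted p = 0.00309) and under anti-IL-6R (adjusted p = 0.0128). Those fits use the tumor-free values not well above background, and Ccl7 passed the filter through the tumor-bearing groups alone. The call under anti-IL-6R was lost without array 3 (adjusted p = 0.0565), 4 (adjusted p = 0.0538), 7 (adjusted p = 0.0545) or 8 (adjusted p = 0.0673).

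Ccl12 was at -0.55 and -0.92 in tumor-bearing mice given anti-IL-6R and at -0.85 and -1.02 in tumor-bearing controls. In tumor-free mice it was at -4.78 and -3.73 with anti-IL-6R and at -3.39 and -5.72 with control antibody, and arrays 5 and 2, the lower of each pair, were not well above background. Under control antibody the gap between tumor-bearing and tumor-free arrays was 2.36, and the 2 tumor-free controls differed by 2.33. The lower of these controls was not well above background, so their spread is not well measured. Ccl12 passed the filter through the tumor-bearing groups alone. The fitted difference with tumor under control antibody was 3.61 ± 0.65 and was called (adjusted p = 0.0224), and its size rests on a tumor-free group in which 1 of 2 arrays was measured well above background. This call was lost without array 3 (adjusted p = 0.106) or 4 (adjusted p = 0.0738), with no trend (adjusted p = 0.0706) and with no filter on dim probes (adjusted p = 0.0621), and the difference was 4.78 without array 1 and 2.45 without array 2. Under anti-IL-6R the difference was 3.52 ± 0.65 and was not called (adjusted p = 0.121), though it was without array 1 (adjusted p = 0.0404) or 2 (adjusted p = 0.0381) and with normexp background correction (1.91, adjusted p = 0.0213).

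Ccl2, the best known monocyte attractant of the family, followed a less even course. It was at -1.66 and -1.19 in tumor-bearing mice given anti-IL-6R, at -2.06 and -2.19 in tumor-bearing controls, at -4.09 and -3.14 in tumor-free mice given anti-IL-6R and at -3.13 and -2.77 in tumor-free controls. Array 5, the lowest, was not well above background. The tumor-bearing arrays were again all above the tumor-free ones, but under control antibody the difference of 0.82 ± 0.32 was not called (adjusted p = 0.163). Under anti-IL-6R the fitted difference with tumor was 2.19 ± 0.32 (adjusted p = 0.0495), with 1 of 2 tumor-free arrays well above background, and it was 1.71 without the dim array 5. That call was lost without array 1, 2, 3, 4, 5, 7 or 8 (adjusted p of 0.113, 0.113, 0.112, 0.110, 0.0701, 0.136 and 0.200 in that order) and with quantile normalization (adjusted p = 0.0664), no filter (adjusted p = 0.167) or no trend (adjusted p = 0.137).

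**Figure D1:**
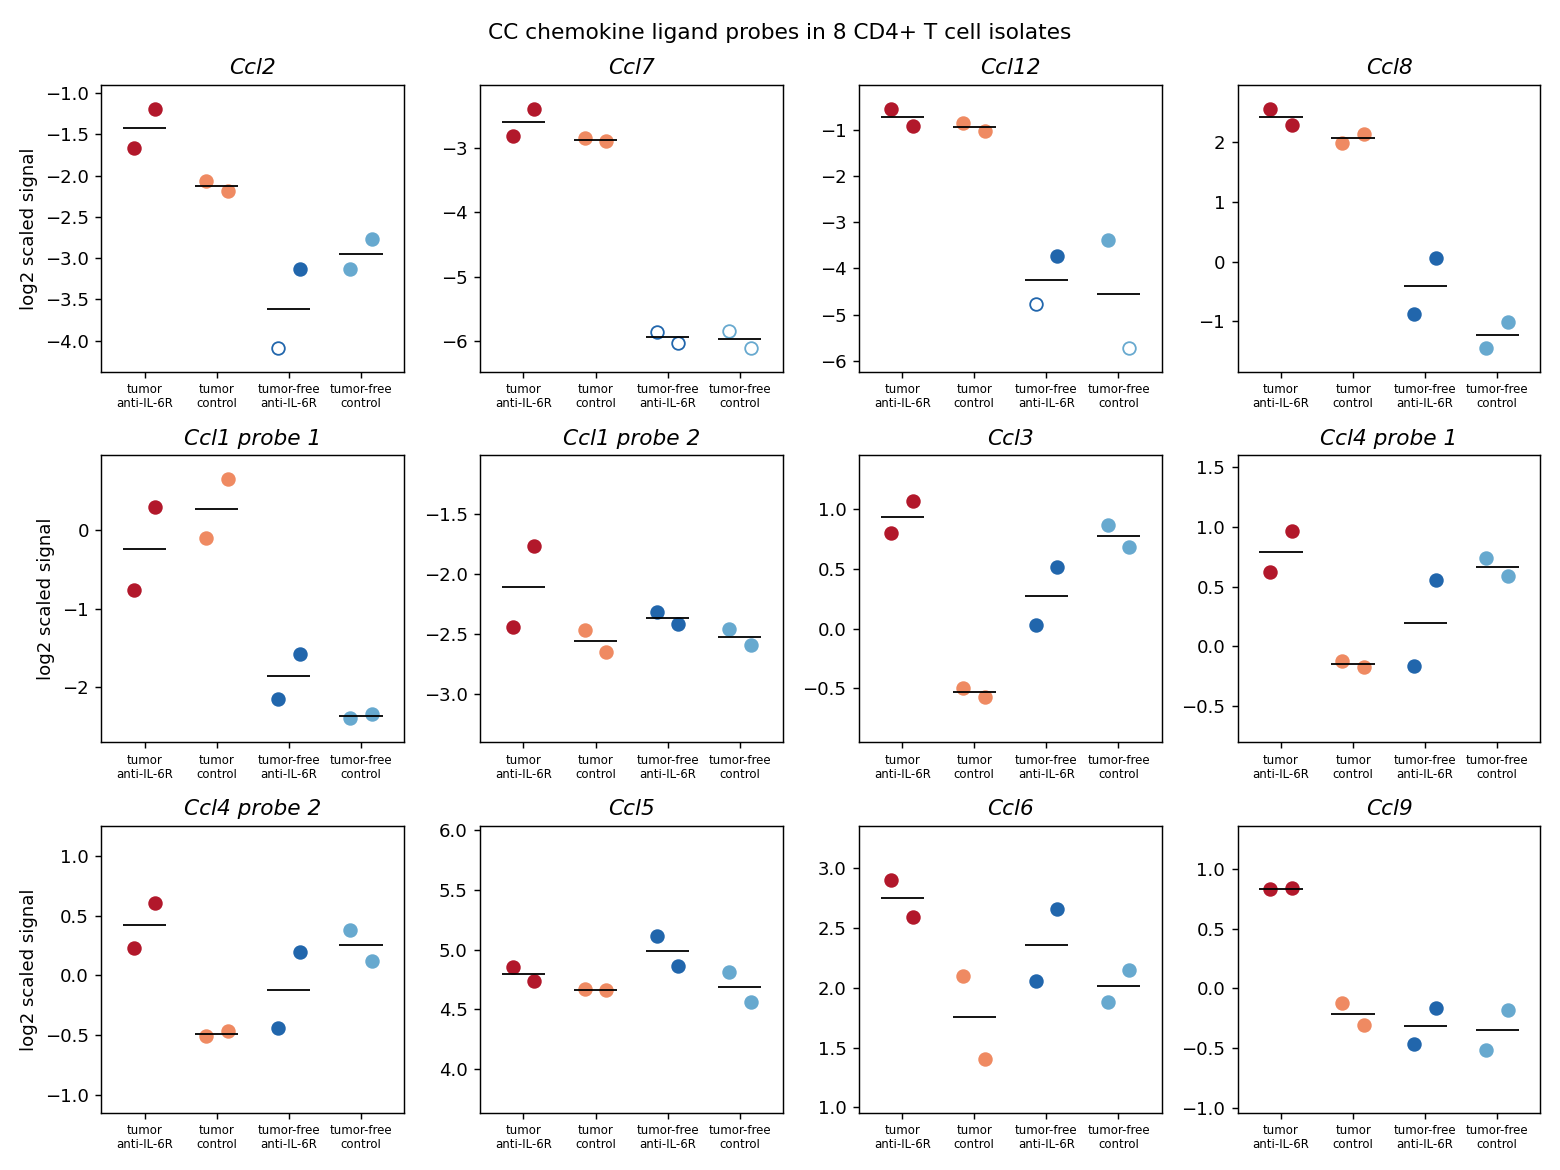
Level of each chemokine probe on each array (vertical axis, log2 signal over the array's 75th percentile; points are arrays, lines are group means, open points are not well above background). Ccl7, Ccl8 and Ccl12 sit higher on all 4 tumor-bearing arrays than on all 4 tumor-free arrays. How many of all probes separate this way was not counted. Ccl3 and Ccl4 have their lowest group mean in tumor-bearing controls.

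Ccl1, the ligand of Ccr8 at the far end of the same cluster, gave a different answer on each of its probes. Probe 1 was at -0.77 and 0.29 in tumor-bearing mice given anti-IL-6R, at -0.10 and 0.64 in tumor-bearing controls, at -2.15 and -1.57 in tumor-free mice given anti-IL-6R and at -2.40 and -2.35 in tumor-free controls. On this probe Ccl1 was 6.23-fold higher with tumor under control antibody (2.64 ± 0.36, adjusted p = 0.00828), a call lost without array 2 (adjusted p = 0.0605). Under anti-IL-6R the difference was 1.62 ± 0.36 and was not called (adjusted p = 0.251). Probe 2 was between -2.65 and -1.76 on all 8 arrays and gave a difference of -0.03 ± 0.23 under control antibody (adjusted p = 0.954). Both probes were well above background on every array, so the change of Ccl1 with tumor is uncertain.

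Ccl3, which is made by activated T cells among others, went the other way with tumor. It was at 0.80 and 1.07 in tumor-bearing mice given anti-IL-6R, at -0.50 and -0.57 in tumor-bearing controls, at 0.03 and 0.52 in tumor-free mice given anti-IL-6R and at 0.87 and 0.68 in tumor-free controls. The tumor-bearing controls were below every other array. Ccl3 fell by 1.31 ± 0.17 with tumor under control antibody (adjusted p = 0.00623), a call kept under every alternative run. It rose by 1.47 ± 0.17 with anti-IL-6R in tumor-bearing mice (adjusted p = 0.0217), a 2.77-fold difference whose call was lost without array 8 (adjusted p = 0.0857), with no trend (adjusted p = 0.0558) and with no filter (adjusted p = 0.0533). Both values rest on the same tumor-bearing control arrays.

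The group means of Ccl4 lay in the same order as those of Ccl3, and no difference was called in the fit described above. Probe 1 was at 0.62 and 0.97 in tumor-bearing mice given anti-IL-6R, at -0.12 and -0.17 in tumor-bearing controls, at -0.16 and 0.56 in tumor-free mice given anti-IL-6R and at 0.74 and 0.59 in tumor-free controls. Tumor-bearing controls were below tumor-bearing mice given anti-IL-6R and below tumor-free controls, while array 5 lay among them. The differences on probe 1 were -0.81 ± 0.22 for tumor under control antibody (adjusted p = 0.0691) and 0.94 ± 0.22 for anti-IL-6R in tumor-bearing mice (adjusted p = 0.0509). On probe 2 they were -0.74 ± 0.21 (adjusted p = 0.0854) and 0.90 ± 0.21 (adjusted p = 0.0533). Without array 5, which belongs to neither pair, the adjusted p on probe 1 was 0.0166 for tumor and 0.0179 for antibody, and on probe 2 0.0385 and 0.0242. Without array 6 the adjusted p on probe 1 was 0.0164 for tumor and 0.0176 for antibody, and on probe 2 0.0379 and 0.0237. The antibody difference was also called on probe 1 with normexp (adjusted p = 0.0462), the filter on all arrays (adjusted p = 0.0473) and 1 probe per gene (adjusted p = 0.0468), and on probe 2 with the filter on all arrays (adjusted p = 0.0491).

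Ccl5, an attractant of T cells that memory and effector T cells express, was nearly level. It was at 4.85 and 4.73 in tumor-bearing mice given anti-IL-6R, at 4.67 and 4.66 in tumor-bearing controls, at 5.11 and 4.86 in tumor-free mice given anti-IL-6R and at 4.81 and 4.56 in tumor-free controls. Its group means spanned 0.32, the narrowest span among the 12 probes, against 3.66 for Ccl8. The difference with tumor under control antibody was -0.02 ± 0.11 (adjusted p = 0.946) and with anti-IL-6R in tumor-bearing mice 0.13 ± 0.11 (adjusted p = 0.501).

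Ccl9, a myeloid ligand of Ccr1, was highest in tumor-bearing mice given anti-IL-6R. It was at 0.83 and 0.84 there, at -0.12 and -0.31 in tumor-bearing controls, at -0.47 and -0.17 in tumor-free mice given anti-IL-6R and at -0.52 and -0.18 in tumor-free controls. The other 3 groups overlapped. Ccl9 rose by 1.05 ± 0.15 with anti-IL-6R in tumor-bearing mice (adjusted p = 0.0267) and was 1.15 ± 0.15 higher with tumor under anti-IL-6R (adjusted p = 0.0328), and both values rest on arrays 7 and 8. The antibody call was lost without array 3 (adjusted p = 0.0520), 4 (adjusted p = 0.0605) or 8 (adjusted p = 0.137), and the tumor call without array 3 (adjusted p = 0.0668), 4 (adjusted p = 0.0655), 5 (adjusted p = 0.0841), 7 (adjusted p = 0.164) or 8 (adjusted p = 0.128). With no filter the adjusted p was 0.0533 for antibody and 0.0951 for tumor, and with no trend 0.0701 and 0.103.

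Ccl6, the neighbour of Ccl9 and likewise a myeloid ligand of Ccr1, was at 2.91 and 2.60 in tumor-bearing mice given anti-IL-6R, at 2.10 and 1.40 in tumor-bearing controls, at 2.06 and 2.66 in tumor-free mice given anti-IL-6R and at 1.88 and 2.15 in tumor-free controls. The tumor-bearing arrays did not overlap between antibodies, but the difference of 1.00 ± 0.26 was not called (adjusted p = 0.0618). It was called without array 5 (adjusted p = 0.0455) or 6 (adjusted p = 0.0443). Tumor made a difference of -0.26 ± 0.26 under control antibody (adjusted p = 0.600).

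By comparison, tumor under control antibody had 4 of the 12 probes called higher (Ccl1 probe 1, Ccl7, Ccl8 and Ccl12) and 1 lower (Ccl3), where 5.25% of all probes were called in either direction, 3.36% higher and 1.89% lower. Ccl7 and Ccl12 could pass the filter only through the groups where they were high, so the higher count is partly set by the filter, and 3 probes were called in either direction with the filter on all arrays. The median change was 0.06 over the 12 probes and 0.01 over all probes, with 6 of the 12 changes above 0. Tumor under anti-IL-6R had 4 called higher (Ccl2, Ccl7, Ccl8 and Ccl9) and none lower, where 0.209% of all probes were called, 0.181% higher and 0.0281% lower, and the medians were 0.91 and -0.05. This count is also partly set by the filter, since it includes Ccl7, and 2 probes were called in either direction with the filter on all arrays. Anti-IL-6R in tumor-bearing mice had 2 called higher (Ccl3 and Ccl9) and none lower, where 4.27% of all probes were called, 1.51% higher and 2.76% lower, with medians of 0.58 and -0.04. The comparisons share groups, so their values are given side by side and are not independent of each other.

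In tumor-free mice limma called 0 of the 12 probes with anti-IL-6R, where 0.0312% of all probes were called in either direction. An unadjusted p under 0.05 was reached by 3 of the 12, which were Ccl8 (0.83 ± 0.28, adjusted p = 0.573), Ccl3 (-0.50 ± 0.17, adjusted p = 0.563) and Ccl5 (0.30 ± 0.11, adjusted p = 0.601). The share of all probes at that unadjusted cut-off was not counted. Ccl7 was not well above background in either tumor-free group and has no fold there. The medians were 0.10 over the 12 probes and 0.02 over all probes.

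Whether the antibody's effect differed with tumor was tested as an interaction, and limma called 0 of the 12 probes there, where 0.025% of all probes were called. An unadjusted p under 0.05 was reached by 5 of the 12, and the share of all probes at that cut-off was not counted. Ccl3 came nearest: its change with anti-IL-6R was 1.97 ± 0.23 larger in tumor-bearing than in tumor-free mice (adjusted p = 0.0538). It was called without array 1 (adjusted p = 0.0450), 6 (adjusted p = 0.0233) or 7 (adjusted p = 0.0459). The interaction was 1.41 ± 0.30 for Ccl4 probe 1 (adjusted p = 0.0885), 1.28 ± 0.30 for probe 2 (adjusted p = 0.0987), 1.02 ± 0.21 for Ccl9 (adjusted p = 0.0865) and 1.36 ± 0.45 for Ccl2 (adjusted p = 0.132). Without array 6 both Ccl4 probes were called (adjusted p of 0.0383 and 0.0421). For Ccl8 and Ccl12 it was -0.47 ± 0.39 and -0.09 ± 0.92.

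**Figure D2:**
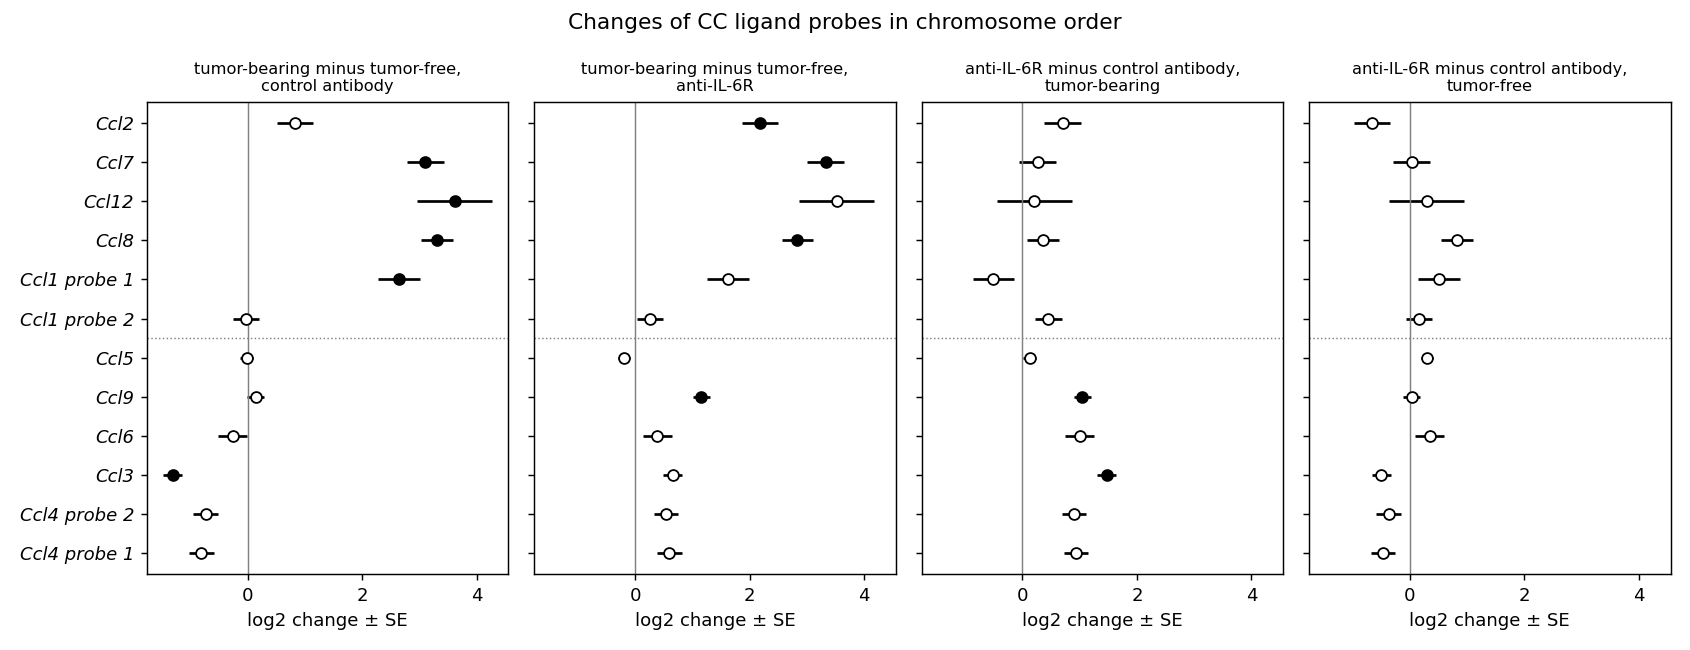
Change of each chemokine probe (horizontal axis, log2 difference, bars are the standard error) in 4 comparisons, with probes in chromosome order from top to bottom and a dotted line between the clusters. Filled points are called; Ccl7, Ccl12 and Ccl8 of the first cluster lie between 3.10 and 3.61 for tumor under control antibody, while Ccl3 of the second lies at -1.31, and the points of Ccl7 and Ccl12 for tumor rest in full or in part on tumor-free values not well above background.

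The Ccr2 and Ccr8 ligands Ccl2, Ccl7, Ccl8 and Ccl12 were then set against Ccl3, Ccl4 and Ccl5, as means of log2 changes with 1 probe per gene. With tumor under control antibody the mean change was 2.71 for the first set (from 0.82 for Ccl2 to 3.61 for Ccl12) and -0.71 for the second (from -1.31 for Ccl3 to -0.02 for Ccl5), a difference of 3.42. With tumor under anti-IL-6R the means were 2.97 and 0.35, a difference of 2.62. The mean of the first set was above 0 with tumor under both antibodies, while that of the second differed in sign. Ccl7 and Ccl12 of the first set passed the filter through the tumor-bearing groups alone, so its mean is not independent of the filter. For Ccl7 the mean uses the fitted difference, although only a lower bound is held for its change. With anti-IL-6R in tumor-bearing mice the means were 0.38 and 0.84, a difference of -0.46, and in tumor-free mice 0.12 and -0.22, a difference of 0.35. The pooled spread between arrays of a group in the difference of the set means was 0.163 (SD). It does not cover the uncertainty of values not well above background. No test was made of these means, since the genes were chosen with results known, and those with tumor-free samples include values not well above background. With normexp background correction, which adds an offset of 50 to every signal, the differences for tumor were 2.15 under control antibody and 1.33 under anti-IL-6R. Single genes moved likewise and stayed called: with tumor under control antibody Ccl7 differed by 0.94, Ccl12 by 1.83 and Ccl1 probe 1 by 2.02, and under anti-IL-6R Ccl7 differed by 0.89 and Ccl2 by 1.19.

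**Figure D3:**
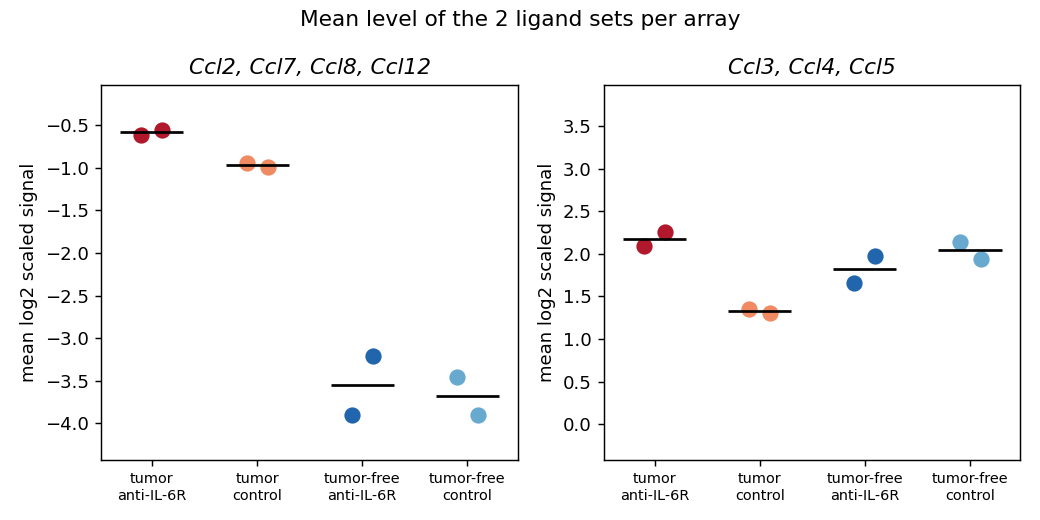
Mean level of Ccl2, Ccl7, Ccl8 and Ccl12 (left) and of Ccl3, Ccl4 and Ccl5 (right) on each array (log2 signal over the array's 75th percentile, 1 probe per gene; points are arrays, lines are group means). The left set lies between -0.99 and -0.55 on the tumor-bearing arrays and between -3.90 and -3.21 on the tumor-free arrays, while the right set is lowest, at 1.35 and 1.31, in tumor-bearing controls. The left set includes tumor-free values not well above background.

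Marker lists of other cells were measured beside these genes, as the sum over a list of linear signal in units of the array's 75th percentile. The monocyte and macrophage list, which includes Csf1r, Adgre1, Cd68 and C1qa, had 17 of 18 genes measured (not Vsig4), all well above background on all 8 arrays. Its sum was 322 and 291 in tumor-bearing mice given anti-IL-6R, 263 and 200 in tumor-bearing controls, 240 and 292 in tumor-free mice given anti-IL-6R and 222 and 239 in tumor-free controls, so tumor-bearing and tumor-free arrays overlapped. With tumor under control antibody 1 of the 17 was called higher (Marco, by 1.42 ± 0.16, adjusted p = 0.00450) and none lower, with a median change of -0.47, beside the higher levels of Ccl7, Ccl8 and Ccl12. With anti-IL-6R in tumor-bearing mice 1 was called higher (Cd14, by 1.14 ± 0.25, adjusted p = 0.0464), with a median of 0.56, beside the higher Ccl3 and Ccl9.

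The neutrophil list (12 of 12 measured) summed to 55.2 and 36.7 in tumor-bearing mice given anti-IL-6R, 129 and 121 in tumor-bearing controls, 39.3 and 156 in tumor-free mice given anti-IL-6R and 34.8 and 55.3 in tumor-free controls. With tumor under control antibody 5 of its genes were called higher, with a median of 1.19, and with anti-IL-6R in tumor-bearing mice 5 were called lower, with a median of -1.02. With tumor under anti-IL-6R 0 were called and the median was -0.25. The NK list (7 of 8 measured), of cells that make Ccl3, Ccl4 and Ccl5, summed to 16.6 and 15.5, 11.3 and 10.7, 18.1 and 18.1, and 15.9 and 16.6 in the same order of groups. It was lowest in tumor-bearing controls, as were Ccl3 and the dendritic cell, B cell and platelet lists. With tumor under control antibody 3 of its genes were called lower and 1 higher, and with anti-IL-6R in tumor-bearing mice 4 were called higher. The dendritic cell list (8 of 9 measured, not Xcr1) summed to 227 and 243, 198 and 196, 218 and 228, and 226 and 236, and its sum was lowest in the same group. With tumor under control antibody 1 of its genes was called higher and 0 lower, with a median of -0.16. With anti-IL-6R in tumor-bearing mice 0 were called, with a median of 0.32. Of the fibroblast list, 4 of 6 genes were measured, Pdgfra and Pdgfrb were not, and the sums were between 0.353 and 0.510.

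In the erythroid list (8 of 8 measured), 7 genes were called higher with tumor under control antibody, with a median of 2.83, beside the higher Ccl8. With tumor under anti-IL-6R, where Ccl8 was also higher, 0 were called and the median was 0.04. With anti-IL-6R in tumor-bearing mice 6 were called lower, with a median of -1.79, beside the higher Ccl3 and Ccl9. Its sum was 576 and 472 in tumor-bearing mice given anti-IL-6R, 714 and 478 in tumor-bearing controls, 493 and 588 in tumor-free mice given anti-IL-6R and 188 and 364 in tumor-free controls. The B cell list (8 of 8 measured) had 4 genes called lower with tumor under control antibody (median -0.87) and 1 called higher with anti-IL-6R in tumor-bearing mice (median 0.71). It summed to 56.6 and 52.6, 42.5 and 29.9, 54.3 and 54.9, and 48.2 and 64.0 in the same order of groups. The platelet list (3 of 4 measured) summed to 1.64 and 1.29, 0.746 and 0.946, 1.28 and 1.21, and 1.09 and 1.16. Both lists were lowest in tumor-bearing controls. The basophil and mast cell, eosinophil, platelet and CD8 T cell lists each had at most 1 gene called in either comparison. The T cell list (12 of 12 measured) summed to 1016 and 903, 1127 and 1156, 1071 and 1027, and 1053 and 944 in the same order of groups. With tumor under control antibody 1 of its genes was called higher (median 0.19). With anti-IL-6R in tumor-bearing mice none was called, 0 of the 12 changes were above 0 and 8 had an unadjusted p under 0.05 in limma (median -0.24). The part of these cells in the chemokine results was not tested.

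Of a list of CC and atypical receptors, which also holds receptors of other ligands, 13 of 14 were measured (not Ccr1). With tumor under control antibody 3 were called higher and none lower, and the median change was 0.22. Ccr2, the receptor of Ccl2, Ccl7 and Ccl12, was at 0.80 and 0.51 in tumor-bearing mice given anti-IL-6R, 1.81 and 1.42 in tumor-bearing controls, 0.18 and 0.24 in tumor-free mice given anti-IL-6R and 0.11 and 0.19 in tumor-free controls. It rose by 1.46 ± 0.14 with tumor under control antibody (adjusted p = 0.00237). Ccr4, a receptor of Ccl17 and Ccl22, rose by 1.08 ± 0.18 (adjusted p = 0.0157), and Ccr8, the receptor of Ccl1 and mouse Ccl8, by 0.88 ± 0.17 (adjusted p = 0.0256). The Ccr4 call was lost without array 2 (adjusted p = 0.106) or 3 (adjusted p = 0.0641), and that of Ccr8 without 1 (adjusted p = 0.0529), 2 (adjusted p = 0.120), 3 (adjusted p = 0.121) or 4 (adjusted p = 0.0738). With no filter Ccr8 lost it (adjusted p = 0.0889), and with no trend Ccr4 (adjusted p = 0.0531).

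With anti-IL-6R in tumor-bearing mice 2 of the 13 receptors were called lower and none higher, with a median change of -0.01. Ccr2 fell by 0.96 ± 0.14 (adjusted p = 0.0267) and Ccr4 by 1.12 ± 0.18 (adjusted p = 0.0277), while the Ccr2 ligands Ccl2, Ccl7 and Ccl12 did not pass the test. Ccr2 lost its call without array 3 (adjusted p = 0.0671) or 8 (adjusted p = 0.157), and Ccr4 without array 3 (adjusted p = 0.0718) or 8 (adjusted p = 0.162). Ccr8 differed by -0.01 ± 0.17 (adjusted p = 0.979). Limma called 0 of the 13 in tumor-free mice with anti-IL-6R, with tumor under anti-IL-6R and in the interaction, where 1, 2 and 5 had an unadjusted p under 0.05.

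Of 11 other CC ligands 5 were measured, and limma called 0 of them in any comparison. With an unadjusted p under 0.05 there was 1 with anti-IL-6R in tumor-bearing mice, 1 with tumor under anti-IL-6R and none in the other 3 comparisons. Of 17 CXC, XC and CX3C ligands 10 were measured. With tumor under control antibody 2 of these fell: Cxcl9, an interferon-induced attractant of activated T cells, by 0.67 ± 0.10 (adjusted p = 0.0110) and Ppbp, a platelet chemokine, by 0.80 ± 0.17 (adjusted p = 0.0403). The Cxcl9 call was lost without array 2 (adjusted p = 0.0529), and that of Ppbp without array 1 (adjusted p = 0.0645), 2 (adjusted p = 0.212), 3 (adjusted p = 0.154) or 5 (adjusted p = 0.0505), with no filter (adjusted p = 0.0884) and with no trend (adjusted p = 0.0918).

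With anti-IL-6R in tumor-bearing mice 5 of these 10 ligands rose and none fell. Cxcl9 was at -0.09 and -0.13 in tumor-bearing mice given anti-IL-6R, -1.10 and -1.13 in tumor-bearing controls, -0.25 and -0.41 in tumor-free mice given anti-IL-6R and -0.41 and -0.47 in tumor-free controls. Like Ccl3 it was lowest in tumor-bearing controls, and it rose by 1.01 ± 0.10 with the antibody (adjusted p = 0.0180). Cxcl12, a stromal ligand of Cxcr4, rose by 1.39 ± 0.22 (adjusted p = 0.0275), Ppbp by 1.04 ± 0.17 (adjusted p = 0.0290) and Pf4, another platelet chemokine, by 0.88 ± 0.19 (adjusted p = 0.0440). The Cxcl9 call was lost without array 8 (adjusted p = 0.0730), that of Cxcl12 without array 3 (adjusted p = 0.0826) or 4 (adjusted p = 0.0563) and that of Ppbp without array 3 (adjusted p = 0.0757), 7 (adjusted p = 0.0547) or 8 (adjusted p = 0.122). Pf4 lost it without array 1 (adjusted p = 0.0605), 2 (adjusted p = 0.0604), 3 (adjusted p = 0.103), 7 (adjusted p = 0.0958) or 8 (adjusted p = 0.182) and with quantile normalization (adjusted p = 0.0504). The fifth was Cxcl10, named after its values were seen, whose call was lost without array 1, 2, 3, 4, 7 or 8 (adjusted p of 0.0629, 0.0627, 0.163, 0.0825, 0.0905 and 0.229 in that order). With no filter on dim probes, or with no trend in the variance, Cxcl9 kept its call, while Ccr2, Ccr4, Cxcl10, Cxcl12, Ppbp and Pf4 lost theirs for the antibody (adjusted p of 0.0564 to 0.0898 with no filter and 0.0732 to 0.106 with no trend).

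**Figure D4:**
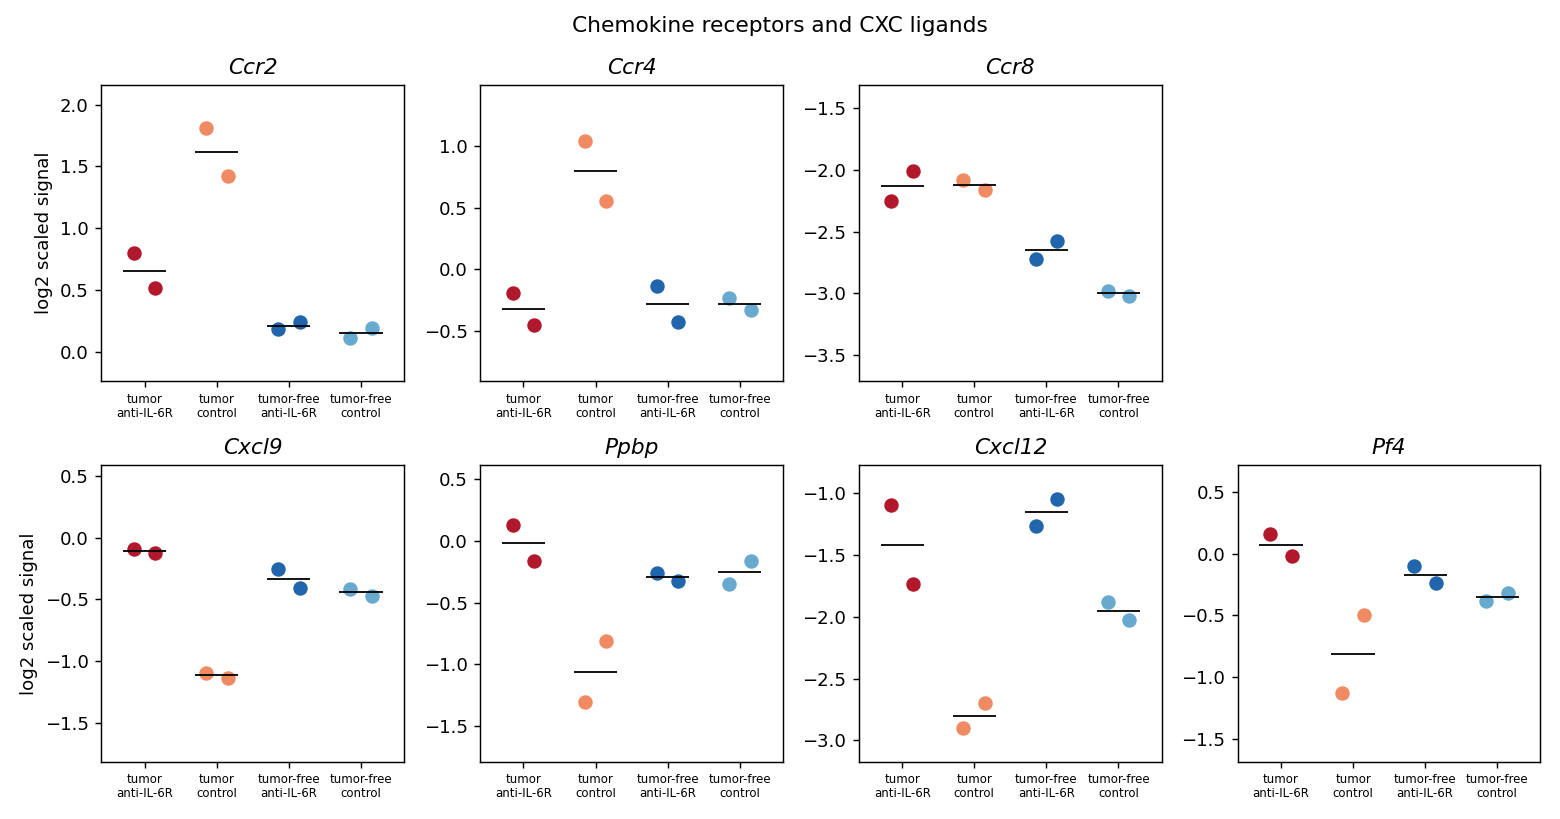
Level of 3 CC receptors (upper row) and 4 CXC ligands (lower row) on each array (log2 signal over the array's 75th percentile; points are arrays, lines are group means, and each panel has its own vertical range). Ccr2 is highest in tumor-bearing controls, at 1.81 and 1.42, and Cxcl9 is lowest there, at -1.10 and -1.13.

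The genes whose levels ran most like a chemokine's were found by Pearson's r over the 8 arrays, among 1983 genes whose group means spanned at least 1. These arrays fall into 4 groups, so r mostly repeats the order of the group means, and it is given as a description. Ccl8 ran most like Cd209b, a lectin of marginal zone and lymph node macrophages (r = 0.995). Ccl2 ran most like Folr2, a folate receptor of tissue macrophages (r = 0.966), and Il10 (r = 0.953). Ccl12 ran most like complement factor B, Cfb (r = 0.960), and Ccl7 like Penk, the enkephalin precursor (r = 0.981). Ccl3 ran most like the early response genes Rhob (r = 0.976) and Atf3 (r = 0.970), Ccl9 like Apoc2 (r = 0.985) and Ccl1 probe 1 like Gjb2 (r = 0.978).

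Probes of other genes within 200 kb of the clusters were also read. In and around the cluster from Ccl2 to Ccl1 there were 4 such probes, 1 of them for Ccl11, and none passed the filter. In and around the cluster from Ccl5 to Ccl4 there were 24, of which 18 passed the filter. With tumor under control antibody limma called 0 of these 18. An unadjusted p under 0.05 was reached by 4, and the share of all probes at that cut-off was not counted.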

How the data were processed

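Each of the 8 samples was measured on a 1-color Agilent array. The deposited scanner files hold intensity per spot; the submitters' processing notes credit them to Agilent Feature Extraction 10.10.1.1. The authors also deposited a table in log2 units, and each of its columns equaled the log2 of the same array's processed signal minus that array's 75th percentile (spread of the offset at most 0.00134), with column medians between -3.33 and -3.09 and no centering of genes. The flags other than intensity in the deposited files mark spots as controls, outliers or well above background.

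Values were recomputed from the scanner files. Control and outlier spots (60 to 95 outliers per array) were dropped, and log2 of the processed signal was taken minus the array's 75th percentile, which was 500 to 526.6 before scaling. Well above background were 53.1% to 59.8% of an array's probes, the dimmest of them at signals of 24.2 to 36.3, and 0 spots were saturated. The number of arrays limits the precision. Probes called well above background throughout 1 or more of the groups (32039 of 56587) were fitted with limma 3.58.1 in R 4.3.3 as 4 group means with an intensity trend in the variance, with two-sided tests and Benjamini-Hochberg adjustment over all 32039 at a threshold of 0.05. Chemokine values are per probe. Receptor, ligand and marker genes were each read from their brightest kept probe, and up to 4 genes per list and comparison with the smallest p past the threshold were named. Promoter windows are RefSeq's (GRCm38.p6). 1 receptor of the list and 1 gene found by likeness are not reported here. The fit was tested on simulated data.

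The genes, lists and rules were chosen with earlier results of these data known. Alternatives were quantile normalization, normexp background correction with an offset of 50, no filter, a filter on all 8 arrays, no variance trend, 1 probe per gene, and leaving out each array in turn. With 1 array left in a group, that array is assumed to vary like the other groups.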

Additional observations from a re-analysis of the deposited data

How the results depend on the processing

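Over 815 values of the chemokine probes under alternatives, 734 kept their direction and their side of the threshold, 37 lost a call, 22 gained one, 22 uncalled differences changed sign and 0 calls did. Over 560 values of the named receptor and CXC ligand genes, 496 kept both, 49 lost a call, 3 gained one and 12 uncalled differences changed sign. No paired analysis was possible because no replicate number is shared between groups. The slide as a block was not run, since there was 1 slide and 1 scan. With normexp the difference between the ligand sets was 2.15 for tumor under control antibody and 1.33 for tumor under anti-IL-6R. A filter on all 8 arrays left Ccl2, Ccl7 and Ccl12 out, so the set difference has no value there.

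Chemokine probes called for tumor under control antibody numbered 5, and 3 with the filter on all arrays. For anti-IL-6R in tumor-bearing mice they numbered 2, and 0 with no filter or no trend and 4 with the filter on all arrays. For tumor under anti-IL-6R they numbered 4, and 2 with no filter or with the filter on all arrays and 1 with no trend. Leaving out arrays gave 4 to 7, 0 to 5 and 0 to 4 of them in these comparisons, 0 for anti-IL-6R in tumor-free mice and 0 to 3 in the interaction.

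Of all probes, 1681 were called for tumor under control antibody, against 674 with no filter, 722 with no trend and 427 to 1787 with an array left out. For anti-IL-6R in tumor-bearing mice the count was 1369, against 15, 56 and 24 to 1766. For tumor under anti-IL-6R it was 67, against 23, 21 and 13 to 223. For anti-IL-6R in tumor-free mice it was 10, against 21 with normexp, 1 with the filter on all arrays, 4 with 1 probe per gene and 8 to 52 with an array left out. For the interaction it was 8, against 5 with quantile normalization, 13 with normexp, 0 with no filter, 1 with the filter on all arrays, 20 with no trend and 4 to 364 with an array left out. The set difference with an array left out was 3.29 to 3.55 for tumor under control antibody, 2.43 to 2.80 for tumor under anti-IL-6R, -0.51 to -0.41 for anti-IL-6R in tumor-bearing mice and 0.16 to 0.53 in tumor-free mice. With fewer or more probes tested, both the adjustment and the variance fit change. The cause of the shifts in calls was not tested. Signals near background limit Ccl2, Ccl7 and Ccl12 in tumor-free mice.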
